A study of Mus musculus with 10 samples.

Results

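The libraries described here are the 5 control libraries among the 10 of a study of retinol saturase (RetSat), an enzyme whose substrate is vitamin A, and they were chosen by the genotype given in their labels. The mice were C57BL/6J males with floxed alleles of the gene (RetSat flox/flox) that lacked the villin-Cre-ERT2 transgene, written villin-Cre-ERT2 (-). That transgene places a tamoxifen-dependent Cre recombinase under the promoter of villin, an epithelial gene. The other 5 libraries, which carry it, are not used here. The mice had been given tamoxifen for 5 days and were then kept for 14 weeks on a high-fat diet in which fat supplied 60% of the energy before RNA was taken from the jejunum. Floxed alleles, tamoxifen and this diet are thus shared by all 5 libraries, and the mice's ages are not given in the sources used here. Whether each sample is a separate mouse is not written in the labels, so the spread between them may be partly technical. The description asks which genes and functions made up the RNA of this tissue and how far the 5 libraries differed.

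The jejunum is the middle part of the small intestine and its main site of absorption. Absorptive enterocytes on the villi digest peptides and sugars at a brush border of microvilli, take up fatty acids and monoglycerides, rebuild them into triglycerides and export these in chylomicrons coated with apolipoproteins. Goblet cells secrete mucus, Paneth cells at the crypt base secrete antimicrobial peptides, and stem and dividing cells renew the epithelium. Plasma cells beneath the epithelium make the IgA that epithelial cells carry into the lumen. Retinol arrives with dietary fat, and enterocytes hold it on a dedicated binding protein before it is esterified.

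CPM values are counts divided by the library total adjusted with TMM factors and scaled to a total of 1000000, and they serve to compare 1 gene between libraries. TPM values, the length-scaled measure of transcript abundance, divide each count by the gene's exon length before scaling, and they serve to compare genes with each other. Spread is given as the SD over n = 5 libraries or as the coefficient of variation (CV), the SD of CPM divided by its mean. Values listed for the libraries stand in the order of controls 1, 2, 3, 4 and 5. Leaving out libraries can only lower the ratio of the highest to the lowest, so such ratios describe the remaining libraries only.

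Depth was even, with 111762175 to 127868284 counts per library and 24559 to 26032 genes with at least 1 count. Retsat itself was at 497, 376, 556, 329.6 and 369 CPM, and Vil1, which encodes villin, was at 2739, 2599, 3394, 3054 and 2754 CPM. Esr1, whose hormone-binding domain is part of the Cre-ERT2 fusion, lay between 0.478 and 0.658 CPM. The male label fitted the Y-linked Ddx3y at 34.9 to 38.4 CPM and Xist, the RNA of the inactive X chromosome, at no more than 0.151 CPM. Gata4, a transcription factor of the proximal small intestine, was at 133 ± 16.7 TPM (SD, n = 5). The bile acid genes of the ileum Fabp6 and Slc10a2 were at 0.807 ± 0.250 and 1.04 ± 0.183 TPM, and the ileal hormone gene Fgf15 had no count. The stomach genes Gkn1 and Gkn2 and the hindgut genes Hoxa13 and Hoxd13 had no counts either. A count of 0 allows up to 3 counts, or 0.0224 to 0.0271 CPM here, for counting error only. Other members of the same region lists had counts. The stomach list summed to 8.58 to 14.9 CPM, the distal small intestine list to 294 to 406 CPM and the colon list to 276 to 318 CPM. Under 1 CPM lay 7 of 9, 3 of 11 and 8 of 13 of their members. Gkn3 of the stomach list had a mean of 26.3 TPM, Slc51b of the distal list 299 TPM and Slc26a3 of the colon list 86.5 TPM.

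Controls 3 and 4 stood farthest apart from each other. The rank correlation across genes, which are not independent replicates, was lowest between controls 3 and 4 (Spearman's rho 0.977) and highest between controls 1 and 2 (0.992). Of 13050 genes with a mean of at least 1 CPM, 729 differed at least 2-fold between controls 3 and 4, against 148 between controls 1 and 2. Of the same 13050 genes, controls 1, 2, 3, 4 and 5 were the highest library for 13.9, 19.4, 26.9, 25.9 and 13.8% and the lowest for 15.6, 19.6, 24.6, 27.8 and 12.5%, which is the background for the counts of list members given with each list.

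A few genes of fat absorption held a large part of the transcripts. The 5 most abundant genes, Fabp1, Apoa4, Rbp2, Apoa1 and Fabp2, held 12.5 ± 2.41% of TPM, and the 10 most abundant held 17.2 ± 2.26% (range 13.7 to 19.2%). Among the 55414 gene identifiers in the files, 27 made up 25% of TPM, 220 made up 50% and 1174 made up 75%. A mean of at least 1 TPM was reached by 13280 genes, 12308 of them in every library, and 134 genes reached 1000 TPM.

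Fabp1, the fatty acid-binding protein of liver and proximal intestine (chr6:71176811-71182007, GRCm39, plus strand), was the most abundant gene with 43099, 37258, 46850.4, 26894 and 34925 TPM. Control 3 was the highest library and control 4 the lowest, and the CV of its CPM was 0.245. Apoa4, an apolipoprotein made by enterocytes during fat absorption, followed with 30998, 26583, 30225, 16539 and 25902 TPM. Here too control 4 was the lowest library, with controls 1 and 3 close together at the top. Rbp2, the cellular retinol-binding protein of enterocytes, was at 26777, 21848, 30723, 17477 and 24105 TPM, and again control 3 was the highest library and control 4 the lowest. Apoa1, the main protein of high-density lipoprotein, was the evenest of the group, with a mean of 20611 ± 2293 TPM and a CV of 0.144. Fabp2, the intestinal fatty acid-binding protein, had a mean of 16248 ± 4541 TPM and a CV of 0.328. The ratio of Fabp1 to Fabp2 in TPM was 2.36 ± 0.250, and that of Apoa4 to Apoa1 was 1.25 ± 0.172.

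The order of these leading genes depends on the length used, and the first 5 were the same genes with either of 2 lengths. With the longest coding sequence in the GENCODE M21 annotation in place of exon length, the first 5 genes were Rbp2, Fabp1, Apoa4, Fabp2 and Apoa1, with 21702 TPM for Rbp2 and 20575 TPM for Fabp1. The 10 highest genes had 6 in common between the 2 lengths. Fth1, the heavy chain of the iron store ferritin, moved from rank 16 to rank 6. In plain counts Apoa4 led with 17647 ± 4486 CPM. The first 5 genes were then not the same group, since Fabp2, with 5872 ± 1928 CPM, was not among them.

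To show the sequence at which transcription of leading genes starts, the start regions of 3 of them are given, from 120 bases before to 20 bases after the annotated start (RefSeq, GRCm38.p6, plus strand). Capitals mark matches on either strand to 4 short motifs: TATAAA of the TATA box, AGATAA bound by GATA factors, CAAAGT bound by HNF4 and related receptors, and GTTAAT bound by HNF1 factors. In Rbp2 a match to AGATAA and one to TATAAA on the opposite strand overlap. The region of Apoa4 has none of the 4 motifs, and neither have those of Apoa1 and Fabp2, which are not shown.
Fabp1 (chr6:71199759-71199898): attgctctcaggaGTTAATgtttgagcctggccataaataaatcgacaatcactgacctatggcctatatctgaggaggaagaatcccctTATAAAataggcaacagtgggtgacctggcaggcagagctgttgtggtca
Rbp2 (chr9:98490417-98490556): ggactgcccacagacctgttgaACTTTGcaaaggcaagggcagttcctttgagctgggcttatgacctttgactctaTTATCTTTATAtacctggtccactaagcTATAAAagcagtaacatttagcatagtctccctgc
Apoa4 (chr9:46240724-46240863): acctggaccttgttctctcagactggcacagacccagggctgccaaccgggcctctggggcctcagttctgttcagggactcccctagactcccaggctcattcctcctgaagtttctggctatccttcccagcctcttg
A match is a description of letters and no evidence of a bound site. Among the 100 most abundant nuclear genes, 74 had an entry in the promoter table, which spans 250 bases before to 50 after each start. TATAAA was present in 27.0% of these 74, in 7.53% of 9592 promoters of genes with at least 1 TPM and in 14.2% of all 27025 promoters. CAAAGT was present in 25.7%, 12.2% and 14.3% of the same sets, GTTAAT in 13.5%, 4.36% and 7.20%, and AGATAA in 13.5%, 6.85% and 11.4%.

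**Figure D1:**
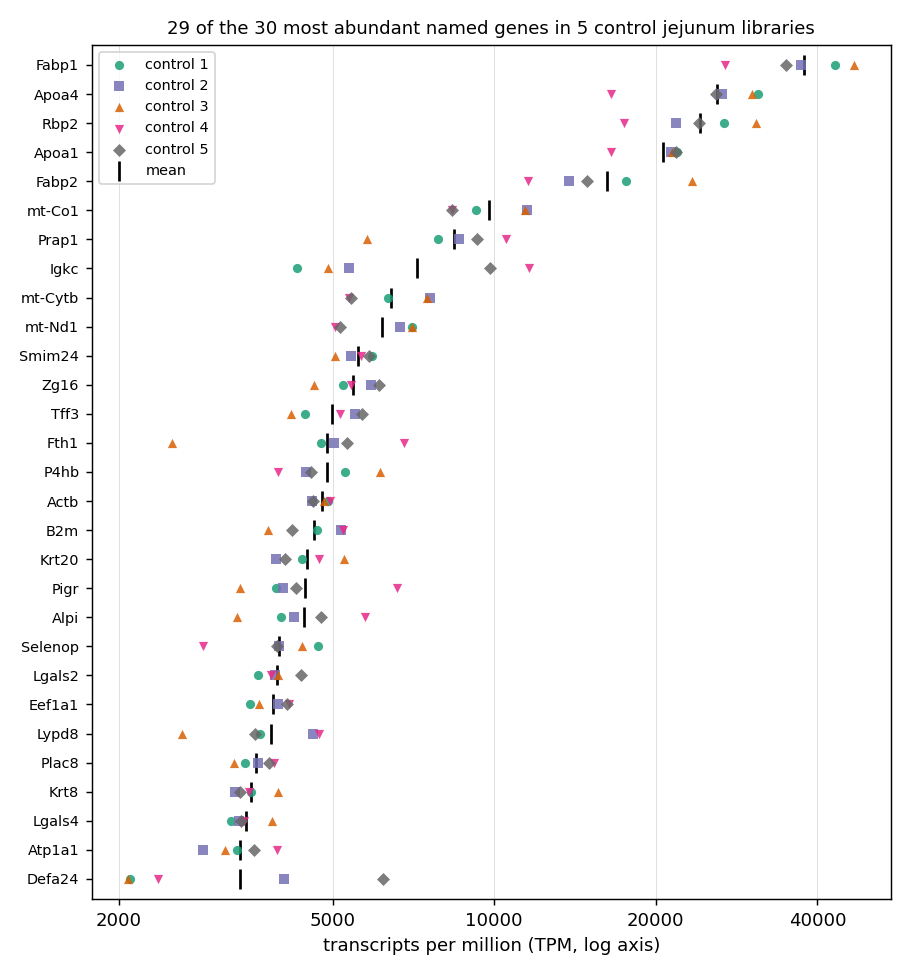
Level in TPM (log axis) of 29 of the 30 most abundant genes that have a symbol; each marker is 1 of the 5 control libraries and the bar is their mean. Fabp1 leads with a mean of 37805 TPM, control 4 is lowest for the 5 leading genes, and Defa24, Fth1 and Igkc have the widest gaps between libraries.

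Behind the fat absorption genes came mitochondrial mRNAs, secreted proteins and immunoglobulin. Prap1, an acidic protein secreted by the gut epithelium, had 8419.6 ± 1767 TPM, and Igkc, the constant part of the kappa light chain, had 7197 ± 3286 TPM. The goblet cell products Zg16 and Tff3 had 5455 ± 588 and 4991 ± 658 TPM, and Pigr, the receptor that carries IgA across the epithelium, had 4439.6 ± 1249 TPM. The smallest CVs among the first 30 were those of Plac8 (0.0469), the elongation factor gene Eef1a1 (0.0567) and the actin gene Actb (0.0624). Of the 30, control 3 was the highest library in CPM for 13 and the lowest for 10, control 4 the highest for 7 and the lowest for 11, and control 5 the lowest for 0.

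One identifier among the 10 most abundant has no symbol in the tables used here and is not described. Lars2, which encodes a mitochondrial leucyl-tRNA synthetase, was at 1066, 642, 312, 240.2 and 256 CPM and the microRNA gene Mir6236 at 35.3, 20.3, 10.03, 6.39 and 7.49 CPM, both highest in control 1 and lowest in control 4. Identifiers without a symbol together held 1.26, 0.977, 0.643, 0.536 and 0.610% of counts, the same order of libraries. Whether the counts of Lars2 and Mir6236 come from transcripts of these genes was not tested. Lars2 and Mir6236 were chosen after their values were seen.

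**Figure D2:**
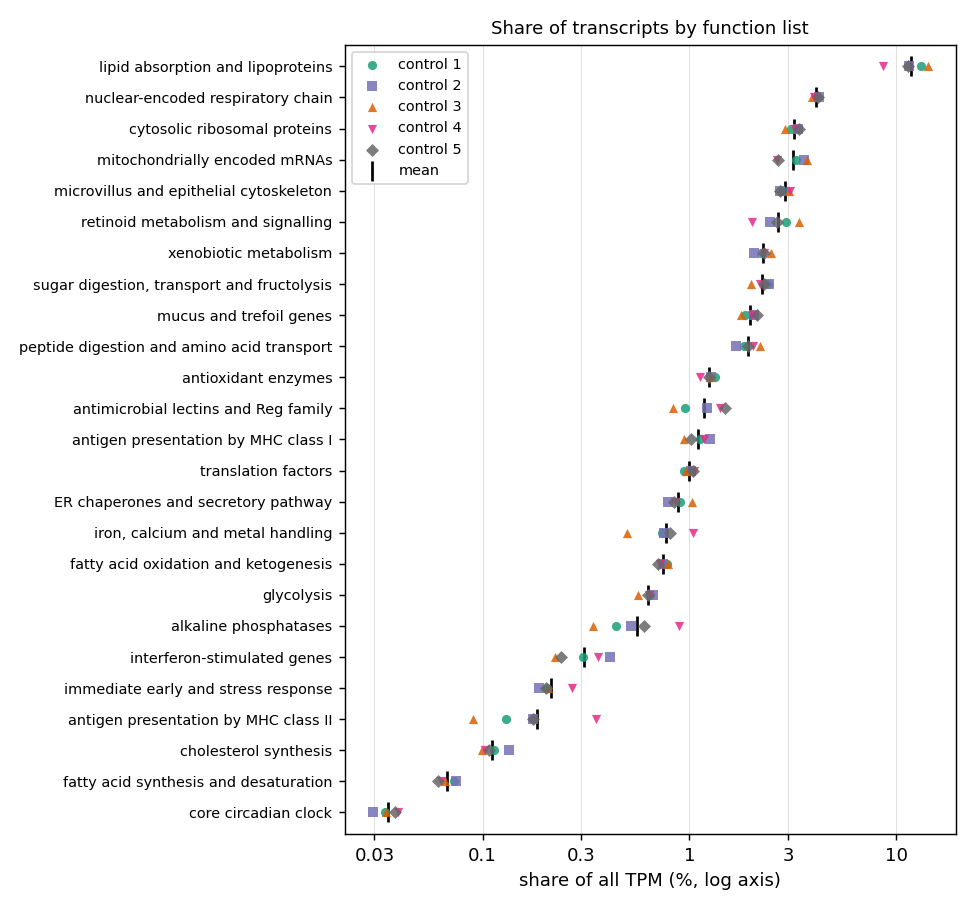
Share of all TPM in percent (log axis) held by each of 25 lists of genes; markers are the 5 control libraries and bars their mean. Lipid absorption stands highest at 11.8% with control 4 lowest, while the nuclear-encoded respiratory chain stays between 3.92 and 4.24%.

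The 25 function lists, 702 genes in all, held 45.3 ± 2.05% of TPM. Lipid absorption and lipoproteins was the largest with 11.8 ± 2.15%, and its shares by library were 13.3, 11.6, 14.2, 8.61 and 11.4%. It was followed by the nuclear-encoded respiratory chain with 4.11 ± 0.142% over 79 genes and cytosolic ribosomal proteins with 3.20 ± 0.201% over 79 genes. Microvillus and epithelial cytoskeleton held 2.89 ± 0.148%, xenobiotic metabolism 2.28 ± 0.154%, sugar handling 2.26 ± 0.175%, mucus and trefoil genes 1.97 ± 0.145% and peptide digestion with amino acid transport 1.93 ± 0.200%. Of the last share, 0.842% of TPM was Prap1, a secreted protein that is no peptidase or transporter. All shares are of RNA, and in whole tissue fewer cells of a type and less RNA per cell cannot be told apart.

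Fat absorption genes downstream of uptake were also abundant. Mttp, the transfer protein that loads lipid onto nascent chylomicrons, was at 6363, 5042, 7920.3, 4375 and 5019 CPM, and Apob, their structural protein, was at 4337, 4076, 5094, 3425 and 3473 CPM. For the activating enzyme Acsl5 the values were 4852, 3543, 5694, 2772 and 3677 CPM. In each of these 3 genes control 3 was highest and control 4 lowest. In TPM the transporter gene Slc27a4 was at 1021 ± 144, the acyltransferases Mogat2 and Dgat1 were at 837 ± 71.3 and 818 ± 57.5, and the apolipoprotein Apoc3 was at 2252 ± 397. These genes of transport and assembly were chosen for their role with their values known. Of the 37 list members with at least 1 CPM, control 3 was the highest library for 28 and control 4 the lowest for 21, against 26.9% and 27.8% of all 13050 genes. Clps, the colipase gene, had the largest CV of the list at 0.562, with 16.1, 24.98, 14.3, 20.7 and 49.1 CPM. It also belongs to the pancreatic list described further on, in which control 5 was the highest library for 15 of 16 members with at least 1 CPM. Without control 4, the CV of the list's summed CPM was 0.145, against 0.212 with all 5.

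Retinoid genes were led by Rbp2 alone, which made up most of the list's 2.69 ± 0.522% of TPM. The next were the dehydrogenase genes Rdh7 (566 ± 82.4 TPM), Dhrs4 (469 ± 37.4 TPM) and Aldh1a1 (427 ± 158 TPM), the last of which makes retinoic acid. Retsat came next with 323 ± 59.0 TPM, and its TPM was 0.0135 ± 0.00138 of that of Rbp2. Aldh1a1 varied most among these, with 771, 602, 1363, 525 and 699.6 CPM and control 3 the highest library. Cyp26b1, which breaks down retinoic acid, had 0.944 ± 0.607 TPM and the largest CV of the list, 0.606. The list's sum differed 1.86-fold between its highest and lowest library and 1.27-fold without controls 3 and 4.

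Genes for oxidizing fat were less abundant than those for its export and varied less. Fatty acid oxidation and ketogenesis held 0.749 ± 0.0347% of TPM, with a median CV of 0.104 over 32 genes. Acaa2, a mitochondrial thiolase, had 1043 ± 30.3 TPM and Hadh 683 ± 42.3 TPM. Pdk4, a kinase that shuts down pyruvate oxidation, was the most variable member with 92.7, 34.0, 92.4, 32.2 and 44.8 CPM. Lipid synthesis was low: fatty acid synthesis and desaturation held 0.0674 ± 0.00602% and cholesterol synthesis 0.112 ± 0.0141%. In the first of these lists Scd1, the stearoyl-CoA desaturase gene, was at 8.42, 5.40, 48.6, 6.41 and 2.22 CPM, so that control 3 alone was above 10 CPM. Srebf1, a regulator of lipogenic genes, was at 322, 255, 225, 94.4 and 182 CPM, with control 4 lowest.

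Sugar genes differed among themselves in their spread. Sis, which encodes sucrase-isomaltase, was at 6098, 5086, 5976, 6164 and 6022 CPM, a CV of 0.0756 with control 2 the lowest library, and the sodium-glucose transporter gene Slc5a1 at 3405, 2422, 3365, 4487 and 4384 CPM. Khk, the fructokinase gene, had 1346 ± 177 TPM. Lct, which encodes lactase, was at 2614, 1791, 3309, 1454 and 1998 CPM, and the ratio of Sis to Lct in TPM ran from 1.55 to 3.64. Pck1, a gene of glucose synthesis, had the largest CV of the list, 0.939, with 166, 29.4, 313, 31.6 and 91.0 CPM. Controls 1 and 3 were the high libraries for it and controls 2 and 4 the low ones.

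Peptide digestion and amino acid transport genes were mostly highest in control 3. Of 32 list members with at least 1 CPM, control 3 was the highest library for 29 and control 2 the lowest for 24. Prap1, the most abundant member with 0.842% of TPM out of the list's 1.93%, is a secreted acidic protein and no peptidase or transporter. Prap1 went the other way. It was at 1838, 1898, 1418, 2280 and 2175 CPM, highest in control 4 and lowest in control 3. Anpep, the aminopeptidase N gene, was at 3073, 2243, 6391, 2781 and 2840.3 CPM, Naaladl1 at 136, 83.5, 361, 93.0 and 121 CPM and Enpep, a glutamyl aminopeptidase gene, at 561, 346, 1319, 454 and 575 CPM. Enpep was chosen after its values were seen. In each of them the highest library was more than 2-fold above the next. Mep1b, a meprin subunit gene, was more even, with a CV of 0.210. Without control 3 the CV of the list's summed CPM was 0.120, against 0.291 with it.

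The share of the microvillus and epithelial cytoskeleton list was steady, from 2.76 to 3.07%. Its members Krt20, Krt8 and Vil1 were at 4473 ± 534, 3524 ± 259.6 and 2209 ± 214 TPM. Their CVs of 0.152, 0.117 and 0.109 lay above the median of 0.0994 of all 13050 genes. Drug-metabolizing genes were led by the carboxylesterase Ces2e (2074 ± 246 TPM), the alcohol dehydrogenase Adh1 (1828 ± 121 TPM) and the cytochrome P450 Cyp4f14 (1756 ± 52.5 TPM). Of their 65 members with at least 1 CPM, control 3 was the highest library for 39 and control 2 the lowest for 44, and their sum differed 1.39-fold between the extremes, or 1.19-fold without controls 3 and 4. The glutathione transferase Gsta3 was the most variable, with 2.85, 1.69, 13.6, 2.99 and 2.48 CPM. Among antioxidant genes Selenop, which encodes a secreted selenium carrier, had 3976 ± 695 TPM and Txn1, a thioredoxin, 2863 ± 226 TPM.

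Lists of genes needed in every cell had the smallest median CVs of the 25, led by translation factors with 0.0503. Cytosolic ribosomal proteins had a median CV of 0.0534, and control 5 was the highest library for 73 of 79, against 13.8% of all 13050 genes. Rplp1 led them with 2556 ± 189 TPM. Nuclear-encoded respiratory chain genes had a median CV of 0.0622, and control 4 was the lowest library for 69 of 79, against 27.8% of all genes. The extremes of that list depended on the scaling: its sum was lowest in control 3 with plain library totals and highest in control 5, or in control 1 with RLE factors. Atp5a1 and Atp5b, subunits of ATP synthase, had CVs of 0.0284 and 0.0251. Glycolysis genes had a median CV of 0.0582, with Ldha at 1863 ± 128 and Gapdh at 943 ± 90.7 TPM. Reads that fit pseudogenes equally well are not counted by default, so levels of ribosomal protein genes and Gapdh are uncertain.

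The list of 13 mRNAs of the mitochondrial genome held 3.17 ± 0.498% of TPM. In it mt-Co1 was at 5405, 6316, 6952, 4507 and 4867 CPM and mt-Cytb at 2742, 3081, 3379, 2144 and 2335 CPM. Both were highest in control 3 and lowest in control 4. The list's share leaves out mitochondrial rRNA and tRNA genes, which held 0.728 ± 0.145% of TPM. It also hardly includes 5 genes of the genome, since mt-Co2, mt-Co3, mt-Atp6, mt-Atp8 and mt-Nd4l were listed at no more than 1.01 TPM. Reads with several alignments, such as those shared with nuclear copies of mitochondrial genes, are not counted by default. Their part in these 5 values was not tested, and the values are not read as levels.

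Secreted products of goblet cells differed little between libraries. The goblet cell list summed to 8426, 9512, 8225, 9408 and 10102 CPM, with Fcgbp at a CV of 0.0640 and Clca1 at 0.266. Control 5 was the highest library for 7 of its 9 members and control 3 the lowest for 6, against 13.8% and 24.6% of all 13050 genes. In the mucus and trefoil list, Muc13, a membrane mucin gene, had 2883 ± 446 TPM, and Guca2b, which encodes uroguanylin, 2957 ± 617 TPM. Guca2b had a CV of 0.253, with control 3 the highest library and control 4 the lowest. Tuft cell, cycling cell and enteroendocrine lists were also even, with highest over lowest ratios of 1.05, 1.13 and 1.21. Gip, the hormone gene of K cells, had 515 ± 44.9 TPM and was the highest of the hormone genes listed, followed by Sct, the secretin gene, with 169.5 ± 17.6 TPM. Nts, the neurotensin gene, was the variable hormone, with 9.77, 8.72, 22.9, 3.50 and 6.92 CPM. The stem cell marker Olfm4 was at 529.8, 498, 409.6, 394 and 579.8 CPM and the division marker Pcna at 89.9, 89.8, 76.2, 78.0 and 82.6 CPM.

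**Figure D3:**
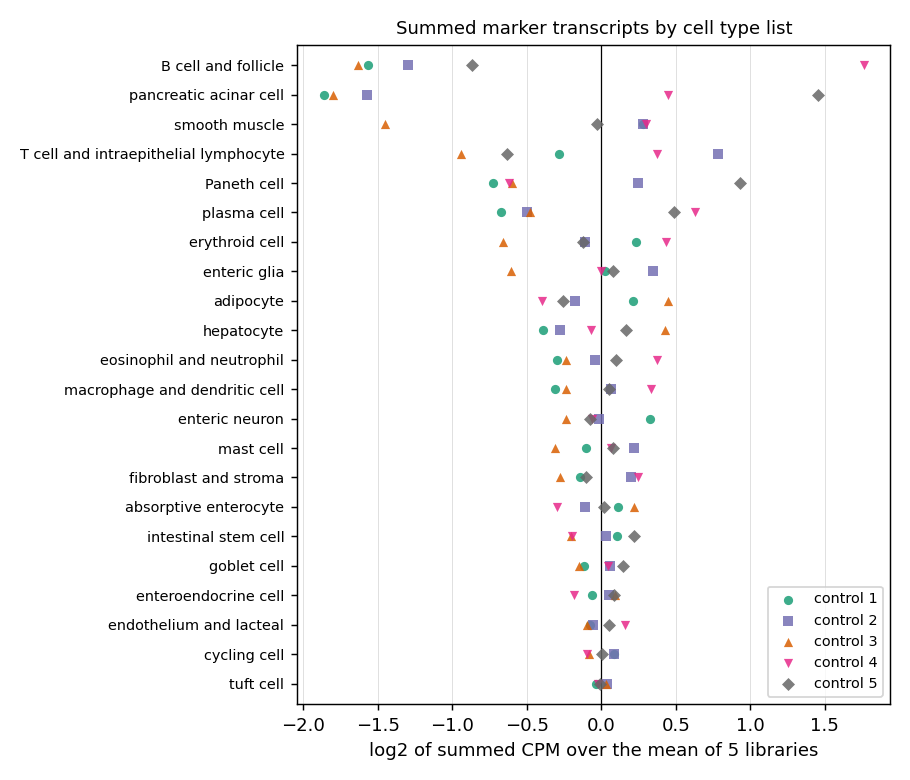
Summed CPM of the markers in each cell type list, as log2 over the mean of the 5 libraries, ordered by the highest over the lowest library. The B cell list stands out in control 4, the acinar list in controls 5 and 4, and smooth muscle in control 3, while tuft and cycling cell lists lie near 0 in all libraries.

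Paneth cell genes were high in controls 5 and 2. The list summed to 1093, 2145, 1195, 1176 and 3452 CPM, and control 5 was the highest library for 15 of 15 members with at least 1 CPM. Lyz1, the Paneth cell lysozyme gene, was at 340.1, 767, 366, 410.4 and 1213 CPM, the defensin gene Defa24 at 332, 604, 344, 346 and 981 CPM and the lectin gene Itln1 at 160.4, 329, 188, 156 and 504 CPM. Defa24 and Defa30 have near-identical relatives, so their share of the reads is uncertain, while Lyz1 had the same order of libraries as Defa24. Mptx2, a pentraxin of Paneth cells, had the largest CV of the list at 1.41. Without control 5 the ratio of the highest to the lowest sum was 1.96, against 3.16 with it.

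Reg family genes did not share 1 order of libraries. Reg1, a secreted lectin gene, was at 786, 788, 321, 1806 and 1405 CPM, highest in control 4, and Reg3a at 289, 189, 510.2, 102 and 224 CPM, highest in control 3. Reg3b, chosen after its values were seen, was at 137, 125, 388, 162 and 409 CPM, highest in controls 5 and 3. Lypd8, which keeps bacteria off the epithelium, had 3837 ± 856 TPM and a CV of 0.178.

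Plasma cell genes were higher in controls 4 and 5 than in the other libraries. The list summed to 3351, 3782, 3844, 8275 and 7511 CPM. Igkc was at 864, 1015, 1029.7, 2155 and 1967 CPM, Igha, the IgA heavy chain gene, at 1888, 2094, 2212, 4791 and 4285 CPM, and Jchain, the joining chain gene, at 401, 475, 448, 1013 and 940.1 CPM. The lowest of controls 4 and 5 lay above the highest of the other 3 libraries for each of these genes. Their proportions held: the ratio of Igha to Igkc in TPM was 0.431 ± 0.0120.

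Variable segments of antigen receptor genes differed widely between libraries. Of 155 immunoglobulin and T cell receptor segments with at least 1 CPM, 129 had a CV above 0.5 and the median CV was 0.741, against 269 of 12895 other genes (2.09%) and a median of 0.0984. The 128 immunoglobulin V segments summed to 715, 870, 865, 2038 and 1656 CPM. The leading segment differed in every library: Iglv1 in control 1, Igkv8-27 in control 2, Igkv1-117 in control 3, Igkv1-110 in control 4 and Igkv10-96 in control 5. In control 3 Igkv1-117 held 13.5% of the V segment sum, with 15.7, 9.04, 117, 23.6 and 9.89 CPM over the libraries. Ighv7-3 was at 1.13, 3.67, 105, 9.39 and 51.8 CPM and Ighv2-3 at 0.819, 0.358, 1.40, 58.3 and 1.28 CPM. Ighv7-3 was thus highest in controls 3 and 5 and Ighv2-3 in control 4. V segments resemble each other, so reads shared between them are lost from these values.

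B cell and follicle genes stood out in 1 library. The list summed to 8.59, 10.3, 8.19, 86.2 and 14.0 CPM, and control 4 was the highest library for 9 of the 9 members with at least 1 CPM. Pax5, the B cell transcription factor gene, was at 0.0534, 0.0747, 0, 5.14 and 0.0534 CPM, Ighd, the IgD heavy chain gene, at 0.125, 0.172, 0.0361, 10.4 and 0.125 CPM and Cxcl13, a follicle chemokine gene, at 0.605, 0.926, 0.325, 4.58 and 0.694 CPM. Without control 4 the ratio of the highest to the lowest sum was 1.71, against 10.5 with it. MHC class II genes, which B cells, dendritic cells and enterocytes express, were highest in control 4 and lowest in control 3 for 7 of 7 members. Cd74, the invariant chain gene, was at 479, 602, 345, 1255 and 652 CPM and H2-Ab1 at 212, 269.7, 147, 494 and 277 CPM. The class II sum ran over a ratio of 3.46, and of 1.35 without controls 3 and 4. The part of B cells in these class II values was not tested.

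T cell and intraepithelial lymphocyte genes had another order, with controls 2 and 4 high and control 3 low. Their list summed to 224, 469.6, 142, 352 and 176 CPM. The granzyme gene Gzma was at 63.6, 152, 37.9, 108 and 51.1 CPM, Gzmb at 28.1, 67.8, 14.3, 52.6 and 22.2 CPM and the chemokine gene Ccl5 at 28.5, 63.5, 13.5, 46.5 and 16.5 CPM. The list of interferon-stimulated genes summed to 2085, 2869, 1481, 2448 and 1625 CPM, control 2 was the highest library for 26 of 32 members and control 3 the lowest for 28. Isg15 was at 64.6, 123, 21.9, 78.8 and 42.2 CPM and the GTPase gene Igtp at 46.4, 150.1, 20.6, 72.5 and 27.3 CPM. The MHC class I list had control 2 highest for 14 of 18 members, with B2m at 1519, 1585, 1286, 1571 and 1363 CPM and the regulator Nlrc5 at 3.48, 9.75, 2.19, 6.61 and 1.74 CPM. Over controls 1, 2 and 5 the highest sum was 2.67 times the lowest for the T cell list, against 3.32 over all 5 libraries, and 1.77 times for the interferon-stimulated list, against 1.94. The part of lymphocytes in the interferon-stimulated gene values was not tested.

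Macrophage and vessel genes differed less between libraries than lymphocyte genes did. The macrophage and dendritic cell list summed to 186, 241, 196, 291 and 238 CPM, with C1qa at 29.0, 35.3, 30.6, 39.4 and 38.3 CPM, and the endothelial list to 91.3, 92.8, 90.3, 107 and 99.9 CPM. Of the 10 eosinophil and neutrophil genes, Ear1, Mpo and Elane had no counts, and the list summed to 9.92, 11.8, 10.3, 15.8 and 13.1 CPM. Hbb-bs, a haemoglobin gene, was at 18.8, 15.3, 10.6, 21.2 and 14.6 CPM.

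Smooth muscle genes were low in control 3. The list summed to 687, 686, 207, 697 and 555 CPM, with Acta2 at 139, 129, 40.9, 116 and 104 CPM, Myh11 at 168, 184, 43.8, 182 and 129.7 CPM and Des at 118, 123, 34.2, 138 and 99.8 CPM. Control 3 was the lowest library for 10 of 10 members, and without it the ratio of the highest to the lowest sum was 1.26, against 3.37 with it. The highest library was control 4 or control 2, depending on the scaling. The enteric neuron genes Prph and Uchl1 had the same lowest library, with 4.17, 3.32, 1.19, 2.81 and 2.47 and 4.03, 3.46, 1.75, 3.48 and 3.15 CPM.

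Pancreatic acinar genes differed widely between libraries. They summed to 35.3, 43.0, 36.7, 175 and 351 CPM. Ctrb1, the chymotrypsinogen gene, was at 0.231, 0.164, 0.144, 32.0 and 61.8 CPM, Prss2, a trypsinogen gene, at 0.142, 0.0299, 0, 10.5 and 23.1 CPM and Cel, a lipase gene, at 0.0979, 0.0448, 0, 5.32 and 15.7 CPM. Controls 4 and 5 were far above the other 3 libraries for each of these 3 genes. In control 5 the list held 0.0816% of TPM. Adipocyte genes summed to 258, 198, 304, 169 and 187 CPM, most of it Cidec, which enterocytes also express. The fat hormone gene Lep was at 0.0712, 1.30, 3.92, 0 and 0.0356 CPM and Car3 at 0.641, 3.46, 7.496, 0.468 and 0.783 CPM, both highest in control 3 and next in control 2. Liver genes stayed low, with Alb at 1.38, 1.37, 7.57, 3.77 and 6.62 CPM.

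Clock genes set control 2 apart from the other libraries. Of 17 with at least 1 CPM, control 2 was the lowest library for 9 and the highest for 4. Dbp, an output gene of the clock, was at 25.8, 3.80, 29.8, 27.0 and 42.2 CPM, Per1 at 14.1, 5.00, 13.5, 18.9 and 27.5 CPM, and Nr1d2 at 49.5, 28.9, 61.9, 72.2 and 74.4 CPM. In the opposite direction, Arntl, which encodes BMAL1, was at 20.2, 41.4, 21.6, 20.9 and 13.3 CPM and Nfil3 at 9.58, 22.0, 11.1, 6.90 and 5.76 CPM. Control 5 was the highest library for 9 of the 17 and the lowest for 5. Times of tissue collection are not given in the sources used here. Dbp, Per1 and Arntl were chosen after their values were seen.

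Over all genes the spread was modest. The median CV of the 13050 genes was 0.0994 with quartiles of 0.0638 and 0.168, and the median ratio of the highest to the lowest library was 1.28. A CV under 0.1 was found for 6557 genes (50.2%), a CV above 0.5 for 398 (3.05%), and 1442 (11.05%) differed at least 2-fold between their highest and lowest library. Without controls 3 and 4 together the median CV was 0.0712 and 495 genes differed at least 2-fold, over 3 libraries. Without control 3 alone 871 genes did so. The common biological coefficient of variation fitted with edgeR was 0.217, and the square root of the median gene-wise dispersion from DESeq2, a different summary, was 0.110. The median spread exceeded counting error in every range of CPM, and it was smallest at intermediate levels: the median CV was 0.156 at 1 to 10 CPM, 0.0782 at 10 to 100 CPM, 0.0824 at 100 to 1000 CPM and 0.120 above 1000 CPM. Counting error alone would give medians of 0.0499, 0.0167, 0.00689 and 0.00216.

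**Figure D4:**
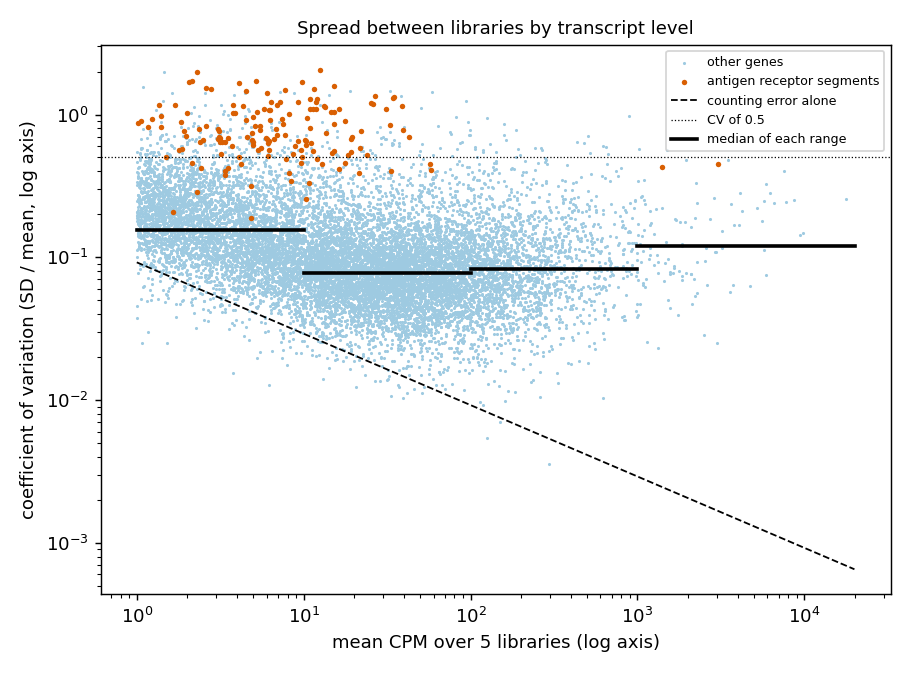
CV over the 5 libraries against mean CPM for 13050 genes (both axes logarithmic), with antigen receptor segments in orange, the CV expected from counting alone as a dashed line and the median of each range of CPM as a solid bar. Most genes lie above the dashed line, the median is lowest between 10 and 100 CPM at 0.0782, and the receptor segments lie mostly above a CV of 0.5.

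The 398 genes with a CV above 0.5 were unevenly shared among the libraries. Control 4 was the highest library for 176 (44.2%) and control 3 the lowest for 153 (38.4%). Both held for 92 of them, 23.1% against 9.63% of all 13050 genes, and 69 of the 92 were not receptor segments. The reverse, control 3 highest and control 4 lowest, held for 36 (9.05%, against 10.2% of all genes), 35 of them not receptor segments. Among the 133 of these genes with a mean of at least 10 CPM the 2 orders were nearer to each other in number, with 28 (21.1%) and 18 (13.5%), and with 19 and 17 of the 90 that are not segments. Of the 20 genes with the largest CV at a mean of at least 10 CPM, 13 were receptor segments, and the other 7 were Ctrb1, S100g, Slc5a12, Scd1, Cubn, Slc40a1 and Clu.

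Among the genes high in control 4 and low in control 3 were Slc40a1 and S100g of the iron, calcium and metal list. Slc40a1, the iron exporter ferroportin, was at 31.4, 63.6, 9.57, 299 and 64.2 CPM, and S100g, the calcium-binding protein calbindin-D9k, at 8.45, 18.7, 3.92, 119 and 15.5 CPM. Their highest library stood 31.2- and 30.4-fold above the lowest, and without controls 3 and 4 the ratios were 2.04 and 2.21. Fth1 had the same highest and lowest library with 6232, 6191, 3434, 8227 and 6967 CPM. Cybrd1, an iron reductase gene, had them too with 1.66, 2.63, 0.794, 7.43 and 2.67 CPM, whereas Heph, the partner oxidase of ferroportin, was at 372, 337, 449.7, 429.9 and 375 CPM and did not. Cybrd1 and Heph were chosen after their values were seen. The iron, calcium and metal list as a whole held 0.738, 0.755, 0.499, 1.04 and 0.804% of TPM. Of its 17 members with at least 1 CPM, control 4 was the highest library for 9, control 3 the lowest for 6 and control 2 the lowest for 6. Without controls 3 and 4 the ratio of the highest to the lowest sum was 1.13, against 1.88 with all 5.

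Further genes of that order, taken after their values were seen from the most variable ones outside the receptor segments, were an alkaline phosphatase, a protease and a transcription factor of the upper intestine. Akp3, a duodenal alkaline phosphatase gene, was at 341, 725, 74.0, 2313 and 993 CPM, while its relative Alpi was at 3541, 3522, 3061, 4699 and 4194 CPM. Tmprss15, which encodes enteropeptidase, was at 95.03, 117, 29.7, 246 and 164 CPM, and Pdx1, a transcription factor of pancreas and duodenum, at 17.7, 28.4, 3.09, 59.4 and 28.8 CPM. The sulfate transporter gene Slc13a1 was at 104, 109, 71.3, 425 and 230.4 CPM and the carrier gene Slc16a9 at 17.2, 18.7, 2.31, 61.0 and 44.5 CPM. In all 5 of these genes control 3 was lowest and control 4 highest, and Clu, the clusterin gene, was high in control 4 alone with 8.74, 7.58, 3.78, 38.6 and 4.20 CPM. The list of proximal small intestine genes, which includes Pdx1, Slc40a1, Cybrd1, Lct and Apoa4, summed to 24438, 19552, 25442.5, 12822.5 and 20320 CPM. Most of that sum was Apoa4, and control 4 was the lowest library. Of the 10 members control 4 was the highest library for 4 and the lowest for 5, against 25.9% and 27.8% of all 13050 genes.

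Other variable genes were highest in control 3. Slc5a12, a lactate transporter gene, was at 37.6, 9.03, 207, 10.4 and 29.0 CPM, and Cubn, which encodes the vitamin B12 receptor cubilin, at 35.9, 9.52, 128, 7.05 and 10.8 CPM. The following were again chosen after their values were seen. Slc23a1, a vitamin C transporter gene, was at 43.8, 17.5, 148, 12.5 and 29.97 CPM, Enpp7, which encodes alkaline sphingomyelinase, at 64.7, 36.8, 219, 33.9 and 53.1 CPM and Slc13a2, a citrate transporter gene, at 60.8, 16.0, 166, 47.1 and 83.9 CPM. Susd2 was at 98.2, 57.8, 242, 23.9 and 58.2 CPM and Clca4a at 564, 192, 868, 255 and 302 CPM. Cd36, a fatty acid receptor gene of the lipid list, was at 219, 124, 337, 105 and 152 CPM and had control 3 highest and control 4 lowest. Control 1 was the next library after control 3 for Slc5a12, Cubn, Slc23a1, Enpp7, Susd2, Clca4a and Cd36. The labels do not say which stretch of the jejunum was sampled, and the part of sampling position in these genes was not tested.

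**Figure D5:**
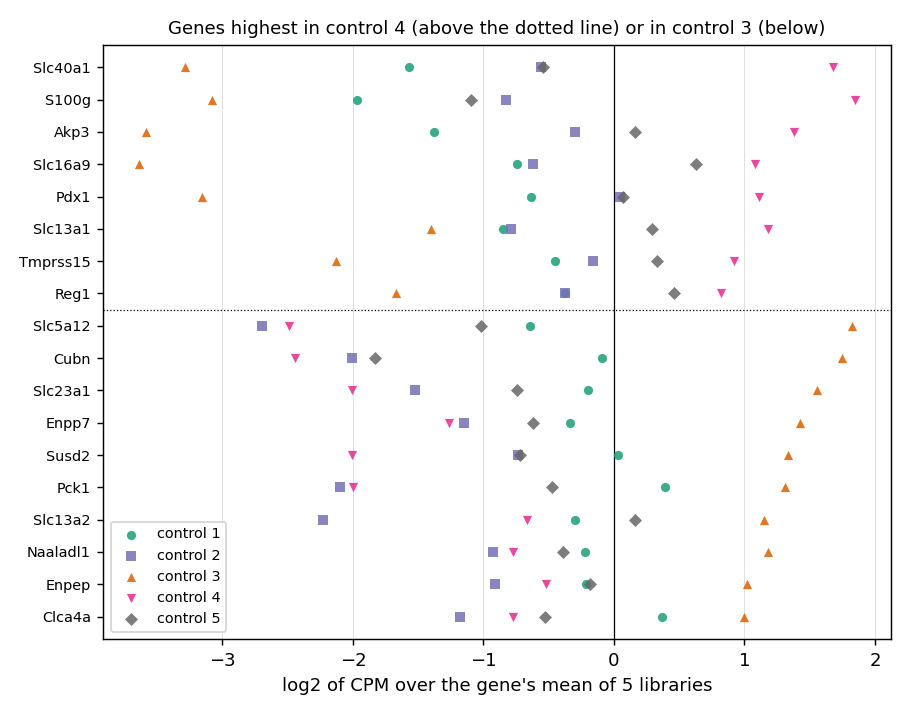
CPM of 18 variable genes in the 5 control libraries, as log2 over each gene's mean, chosen after their values were seen. Above the dotted line control 4 is the highest and control 3 the lowest library for all 8 genes shown, and below it control 3 is the highest library for all 10 genes shown.

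Markers of other tissues and cell types differed between these libraries too. Control 4, in addition to the genes above, was the library with B cell genes at 86.2 CPM and control 3 the one with smooth muscle genes at 207 CPM, while acinar genes were at 175 CPM in control 4 and highest in control 5 at 351 CPM. Their part in the values of the absorptive genes was not tested. Control 4 also had the largest share of TPM for the stress gene list, with 0.206, 0.188, 0.208, 0.270 and 0.202%, but was the highest library for 7 of its 24 members with at least 1 CPM, against 25.9% of all genes. The chaperone gene Hspa8 was at 542, 415, 604, 1046 and 582 TPM, highest in control 4, and Hspa1b was at 2.87, 0.739, 1.89, 9.52 and 1.62 CPM.

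The smallest CV at a mean of at least 10 CPM, 0.00356, was that of Arpc5, a subunit of the actin-nucleating Arp2/3 complex, with 294, 294, 295, 293 and 295 CPM. Ociad1 had a CV of 0.00546, the chaperonin subunit genes Cct3 and Cct6a had CVs of 0.00703 and 0.00992, and Ybx1, a nucleic acid-binding protein gene, was the most abundant of the 15 lowest with 621 ± 6.44 CPM. The other genes among those 15 were Ctdsp2, Mul1, Mepce, Cd82, Tmco3, Gnpat, Fbxl19, Cdk11b, Rad21 and Ostf1, with CVs of up to 0.0118. Such low values are partly a product of choosing the smallest CVs among 8237 genes, and Gapdh, by comparison, had a CV of 0.0686 and Actb one of 0.0624.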

How the data were processed

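RNeasy extraction and DNase digestion preceded library preparation with NEBNext Ultra II, per the labels' protocols. Reads were handled with Trimmomatic, STAR and featureCounts 2.0.1 on GRCm39, per the submitters' processing notes. The deposited values are whole-number counts per gene that the authors made with featureCounts over GENCODE M28 exons, assigning reads by largest overlap, per the file headers. No strand, multimapping or paired-end option stands in those headers, so reads of overlapping or antisense genes cannot be told apart, and near-identical gene copies (defensins, Reg genes, ribosomal protein genes, V segments, mitochondrial genes) have uncertain levels.

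The 5 control libraries held 111762175 to 127868284 counts each, and no other library was used. Of 55414 identifiers, 52081 (94.0%) had a symbol in the GENCODE M21 or NCBI tables, and those without one held 0.536 to 1.26% of counts. TMM factors and the common dispersion came from edgeR 4.0.16 and the alternative dispersion from DESeq2 1.42.0, in R 4.3.3. All else was computed in Python 3.11.15 with pandas 2.3.3. TPM used the exon length in the files over all genes. CVs were taken over the 13050 genes that passed edgeR's filterByExpr with a mean of at least 1 CPM. The computation of CVs was tested on simulated data. No groups were compared and no p-value was computed. Dixon's limit was used only to pick values for the closing section. An interval for a count of 0 covers counting error only.

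The part described, its gene lists and its naming rule were chosen with earlier results of these data known. The rule names the 30 genes with the highest mean TPM (at least 300 bases long), the 20 highest and 15 lowest CVs at a mean of at least 10 CPM, and of each list the 4 members highest in TPM and the member with the largest CV. Genes outside it were chosen after their values were seen, or check the labels. Alternatives were other scalings, lengths, filters and left-out libraries. Coding length from a RefSeq protein table was not run. A few genes within the rule are not reported here.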

Additional observations from a re-analysis of the deposited data

Results flagged for a closer look

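In 28 of 224 values examined (levels of named genes and sums of lists), 1 of the 5 libraries lay so far from the nearest other one that the gap exceeded 0.71 of the whole range, the 95% limit of Dixon's test for 5 values. Chance flags about 1 in 20 such values, many of the genes were chosen for their large spread, and genes of 1 list are not independent. No cause was tested.

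Control 4 was the far library, on the high side, for B cell and follicle genes (summed 86.2 CPM) and their members Ighd (10.4 CPM), Pax5 (5.14 CPM) and Cxcl13 (4.58 CPM). It was also far above the others for Slc40a1 (299 CPM), S100g (119 CPM), Cybrd1 (7.43 CPM), Clu (38.6 CPM), Pigr (9271 CPM), Hspa1b (9.52 CPM) and the share of the stress gene list (0.270% of TPM). Among receptor segments it stood apart for Igkv1-110 (116 CPM) and Ighv2-3 (58.3 CPM).

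Control 3 was far above the others for the brush border peptidase genes Anpep (6391 CPM), Enpep (1319 CPM) and Naaladl1 (361 CPM) and for Enpp7 (219 CPM). The same held for the transport genes Slc5a12 (207 CPM), Slc23a1 (148 CPM) and Cubn (128 CPM), for Scd1 (48.6 CPM) and Gsta3 (13.6 CPM), and for the segment Igkv1-117 (117 CPM). It was far below the others for smooth muscle genes (summed 207 CPM).

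Other libraries stood apart for 4 genes: control 5 was high for Mptx2 (15.5 CPM) and Ybx1 (632 CPM), control 1 was high for Cct3 (151 CPM) and control 2 was low for Sis (5086 CPM). Ybx1 and Cct3 are among the genes with the smallest CVs, so their gaps are small in size.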

How the results depend on the processing

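Length scaling moved the abundance results most. The 10 most abundant genes held 12.3% with coding lengths and 8.54% in plain counts, and the 100 most abundant 30.8% and 27.7%. The share of TPM moved by more than the SD for 19 of 25 function lists under either choice and for 2 without mitochondrial genes. It moved for 0 when single libraries were left out, but leaving out 1 of 5 cannot move a mean by its SD. That 0 is therefore no measure of stability. Scaling by RLE factors or library totals moved the mean summed CPM of 0 of 26 lists beyond the SD. Each set of factors has a geometric mean of 1, so such a mean could hardly move. That count therefore says nothing of differences between libraries. The highest and the lowest library of a sum were the same under TMM, RLE and upper-quartile factors and library totals for 18 of 25 function, 15 of 22 cell type and 2 of 4 region lists. The median CV was 0.105 with library totals alone, 0.169 without a filter, 0.0794 at a mean of at least 10 CPM and 0.0712 without controls 3 and 4. In the same last 3 settings a CV above 0.5 was found for 2971, 133 and 258 genes, and a 2-fold difference for 7216, 446 and 495. The common biological coefficient of variation was 0.269 without a filter and 0.160 at a mean of at least 10 CPM. The square root of DESeq2's median gene-wise dispersion, another quantity and so no alternative value of it, was 0.110. Leaving out each library gave ranges of 13203 to 13369 genes above 1 TPM, 16.7 to 18.2% and 39.3 to 40.3% for the 10 and 100 most abundant genes, 0.0879 to 0.104 for the median CV, 326 to 456 genes with a CV above 0.5, 871 (without control 3) to 1375 genes differing 2-fold, and 0.200 to 0.230 for the common coefficient. Coding lengths, the removal of receptor segments and the removal of controls 3 and 4 together were chosen after seeing the data. Filters and left-out libraries change the genes or samples counted. No paired analysis was possible because no groups were compared. With 5 libraries and no collection times, positions or batches given, the spread cannot be assigned to animals, sampling or handling.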
